A study of Mus musculus with 8 samples.

Results

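The Egr and Nr4a genes encode transcription factors that neurons switch on quickly after activity. The 7 genes described are Egr1, Egr2, Egr3, Egr4, Nr4a1, Nr4a2 and Nr4a3, taken as the rows of the deposited expression table whose gene name matches one of these symbols exactly. Each symbol matched 1 of the 21959 genes listed. They were chosen with the difference between the study's groups already known, so their own fold changes are given as a description and support nothing further. The study addressed how isoliensinine, an alkaloid of the lotus seed, acts on sleep in mice. The Model group holds 4 libraries labelled wild-type brain treated with PCPA (para-chlorophenylalanine, which blocks serotonin synthesis), and the IsoL group holds 4 libraries labelled wild-type brain treated with isoliensinine. The series design describes female ICR mice dosed for 7 days with isoliensinine at 12.5, 25 or 50 mg/kg, with pentobarbital following the final dose by 40 minutes, and names the hypothalamus as the tissue taken. The labels do not say which dose was sequenced, whether the IsoL mice also received PCPA, or whether each library is a mouse of its own, so the spread between libraries may be technical. Blank and alprazolam groups were not analysed here.

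Egr proteins are zinc finger factors that bind GC-rich promoter sites, and Egr1 is widely used as a marker of recent neuronal activity. Nr4a proteins are orphan nuclear receptors whose activity follows mainly from their amount, since their ligand pocket is filled by side chains. Both families are transcribed without new protein synthesis when calcium and growth factor signals reach serum response factor and CREB at their promoters. Nr4a2, also called Nurr1, is in addition a steady marker of midbrain dopamine neurons and of some deep cortical neurons. In the deposited annotation the 7 genes lie on 7 chromosomes, and all 7 carry the term for RNA polymerase II transcription activator activity, which 507 genes of the table carry.

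Promoter sequence is shown for 4 members. The genes were chosen as induced by activity, which acts through CREB, so CREB sites in them are a description and no independent result. The RefSeq promoter table (GRCm38.p6) matched 5 members, Egr2, Egr4, Nr4a1, Nr4a2 and Nr4a3. In the sequences, which run 5′ to 3′ on the gene's strand over the 250 bases before the transcription start, capitals mark the core of the cyclic AMP response element (TGACG, or CGTCA on the other strand) and, in Egr2, also the CArG box bound by serum response factor. Nr4a1 (chr15:101266596-101266845, plus strand), a member lower in every IsoL library, had 4 cores, the nearest ending 36 bases before the start. Egr4 (chr6:85513590-85513839, minus strand), whose level divided the IsoL libraries, had 2. Nr4a2 (chr2:57124004-57124253, minus strand), whose groups overlapped, had 4. Egr2 (chr10:67537619-67537868, plus strand) had 2 and a CArG box 63 to 72 bases before the start.
Nr4a1: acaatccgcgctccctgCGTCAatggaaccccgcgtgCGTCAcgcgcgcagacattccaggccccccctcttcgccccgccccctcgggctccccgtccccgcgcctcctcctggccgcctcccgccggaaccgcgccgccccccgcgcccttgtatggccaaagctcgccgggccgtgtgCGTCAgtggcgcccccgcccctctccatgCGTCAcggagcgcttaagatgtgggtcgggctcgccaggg
Egr4: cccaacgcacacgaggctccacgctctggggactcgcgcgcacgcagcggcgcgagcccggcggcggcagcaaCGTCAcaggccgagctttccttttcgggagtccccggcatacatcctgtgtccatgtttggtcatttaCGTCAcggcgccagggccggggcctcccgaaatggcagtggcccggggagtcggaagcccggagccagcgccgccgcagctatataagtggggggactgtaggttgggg
Nr4a2: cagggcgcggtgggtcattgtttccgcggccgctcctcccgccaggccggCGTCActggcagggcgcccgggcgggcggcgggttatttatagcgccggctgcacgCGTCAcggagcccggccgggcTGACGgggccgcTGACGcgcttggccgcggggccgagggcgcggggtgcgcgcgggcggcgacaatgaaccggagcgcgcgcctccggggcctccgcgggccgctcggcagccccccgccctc
Egr2: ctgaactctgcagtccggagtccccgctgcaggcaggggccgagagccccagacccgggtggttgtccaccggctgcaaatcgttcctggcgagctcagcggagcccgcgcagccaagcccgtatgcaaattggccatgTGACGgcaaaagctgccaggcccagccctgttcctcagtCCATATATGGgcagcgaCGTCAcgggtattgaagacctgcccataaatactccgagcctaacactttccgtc

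The Nr4a3 window (chr4:48045055-48045304, plus strand) also held 4 cores. The core was present in 17.8% of the 32851 RefSeq windows of the same length, searched on both strands. The CArG box was present in 1.47% of them, and among the members only in windows of Egr2. No member window held the full element TGACGTCA (1.55% of all windows, each of which also counts for the core), the Egr site GCGTGGGCG (0.536%) or the Nr4a site AAAGGTCA (1.34%). These matches describe letters in 1 window and not occupied sites. RefSeq lists 5 starts for Egr2, and the window shown is 1 of 3 overlapping ones that hold both elements.

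Library depth was similar, from 14262836 to 21620466 summed counts. Levels are given in CPM, the counts of a gene relative to the library's total after edgeR's TMM scaling (factors 0.983 to 1.01), and 3 counts correspond to 0.138 to 0.210 CPM. Libraries differed in tissue markers. Transcripts of hypothalamic neurons and regions (20 of 20 listed markers in the table, 17 of 19 tested below Model) summed to 306 to 362 CPM in Model and 143 to 268 CPM in IsoL. Markers of cortical and hippocampal excitatory neurons (13 of 13 in the table) summed to 706 to 868 CPM in Model, and to 1187, 1172, 796 and 705 CPM in IsoL 1 to 4. Choroid plexus markers (5 of 5 in the table) summed to 13.2 to 27.2 CPM in Model, and to 692, 589, 70.0 and 25.2 CPM in IsoL 1 to 4. IsoL 1 and 2 stood apart from the other libraries in both lists. General neuronal markers, at 4623 to 5091 CPM in Model and 4780 to 5068 CPM in IsoL, overlapped between the groups, whereas astrocyte markers were at 1342 to 1416 CPM in Model and 1441 to 1592 CPM in IsoL. The Y-linked gene Ddx3y was read at 140 to 160 CPM in all 8 libraries, against the female mice that the design describes. Among Model libraries, Model 2 differed most from the others (chi-square per degree of freedom over genes 11.4 to 12.9, against 2.58 to 7.75 between the other Model libraries).

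The members differed widely in abundance. Per length, in the FPKM deposited by the authors, Egr1 was highest at 17.4 ± 1.95 FPKM in Model (SD, n = 4), followed by Nr4a2 at 8.94 ± 0.564, Nr4a1 at 6.61 ± 0.160 and Nr4a3 at 3.25 ± 0.176 FPKM. Egr3 at 1.32 ± 0.143, Egr4 at 0.734 ± 0.199 and Egr2 at 0.141 ± 0.0632 FPKM followed. This order held within each of the 8 libraries. In Model no neighbours in the order overlapped between libraries. In IsoL the ranges of Egr1 and Nr4a2, of Nr4a3 and Egr3, and of Egr3 and Egr4 overlapped, the first pair at 9.005 to 11.4 against 7.18 to 9.19 FPKM. In bulk tissue, fewer cells expressing a gene and less RNA in each cell cannot be told apart.

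A pair of patterns ran through the IsoL libraries. Egr1 and Nr4a1 were lower in all 4 IsoL libraries than in any Model library. Egr3 and Egr4 were instead above every Model library in IsoL 1 and 2, and below every Model library in IsoL 3 and 4. Nr4a3 was within or just above the Model range in IsoL 1 and 2 and below it in IsoL 3 and 4. Nr4a2 overlapped between the groups, and Egr2 was near the detection limit.

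Egr1 (ENSMUSG00000038418; chromosome 18, 34992876 to 34998037 in the deposited coordinates, with no build named) was read at 85.0, 85.2, 66.0 and 75.6 CPM in Model 1 to 4 and at 51.3, 51.7, 41.6 and 40.02 CPM in IsoL 1 to 4. The groups were separated by a gap from 51.7 to 66.0 CPM, and IsoL 3 and 4 were the lowest. The IsoL mean of 46.1 ± 6.20 CPM was 0.591 of the Model mean of 78.0 ± 9.15 CPM (SD, n = 4 each), a log2 fold change of -0.76 (SE 0.11, 95% interval -0.99 to -0.53). Egr1 carried most of the summed FPKM of the Egr family, 86.5 to 90.2% in Model and 70.8, 74.9, 86.5 and 87.2% in IsoL 1 to 4. Summed over the family, Egr was 17.1 to 21.2 FPKM in Model and 10.3 to 16.1 FPKM in IsoL.

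Nr4a1 (ENSMUSG00000023034, chromosome 15), also called Nur77, is a nuclear receptor induced by both synaptic and stress signals. It was read at 24.5, 22.8, 22.8 and 22.9 CPM in Model 1 to 4 and at 16.2, 18.7, 18.1 and 17.2 CPM in IsoL 1 to 4. The IsoL libraries were close to each other and all lay below the Model libraries. Unlike for Egr1, IsoL 1 was the lowest. The mean went from 23.3 ± 0.814 to 17.6 ± 1.07 CPM, a ratio of 0.755 and a log2 fold change of -0.41 (SE 0.08, 95% interval -0.57 to -0.24).

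**Figure D1:**
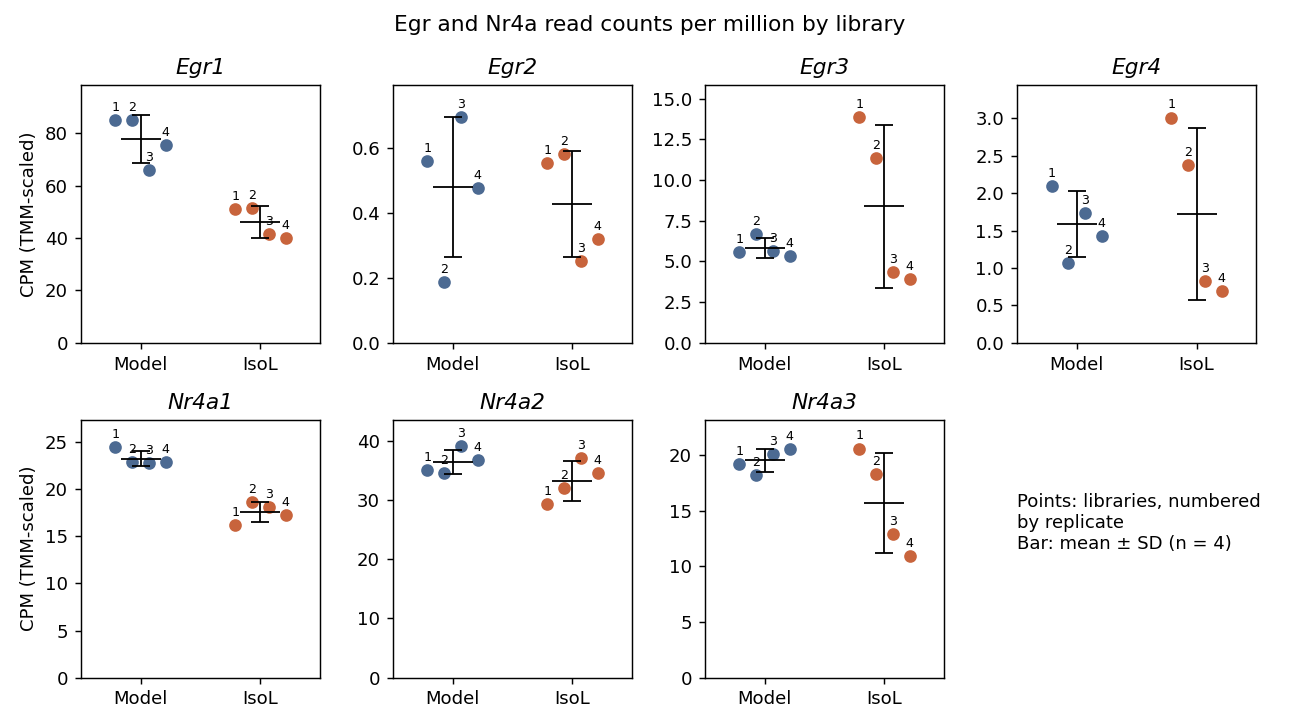
CPM of each member in each library (points, numbered by replicate) with the mean and SD of the 4 libraries per group; each panel has its own axis from 0. Egr1 and Nr4a1 do not overlap between Model and IsoL, whereas Egr3 and Egr4 lie above the Model libraries in IsoL 1 and 2 and below them in IsoL 3 and 4.

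Egr3 (ENSMUSG00000033730, chromosome 14), a factor needed for muscle spindles and abundant in active cortex and hippocampus, was read at 5.59, 6.70, 5.63 and 5.36 CPM in Model 1 to 4. In IsoL 1 to 4 it was at 13.9, 11.4, 4.36 and 3.94 CPM, on 226, 196, 69 and 86 counts. Relative to the Model mean these are ratios of 2.38, 1.95, 0.750 and 0.677. Counting intervals (exact Poisson, 95%) cover counting error only. Those of IsoL 3, 3.40 to 5.52 CPM, and IsoL 4, 3.15 to 4.87 CPM, overlapped that of Model 4, 4.25 to 6.69 CPM. The interval of IsoL 1, 12.1 to 15.8 CPM, lies far from that of IsoL 3. The group means, 5.82 ± 0.595 CPM in Model and 8.39 ± 4.997 CPM in IsoL, therefore describe no single IsoL library, and the fitted log2 fold change was 0.51 (SE 0.43, 95% interval -0.48 to 1.51). It was 0.16 without IsoL 1, 0.33 without IsoL 2, 0.76 without IsoL 4 and 0.26 in voom.

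Egr4 (ENSMUSG00000071341, chromosome 6), a neuronal Egr factor, had few reads but the same arrangement. It was at 2.098, 1.06, 1.74 and 1.43 CPM in Model 1 to 4, on 17 to 30 counts. In IsoL 1 to 4 it was at 3.01, 2.38, 0.822 and 0.688 CPM, on 49, 41, 13 and 15 counts. IsoL 1 at 2.23 to 3.98 CPM and IsoL 3 at 0.438 to 1.41 CPM did not overlap in their Poisson intervals, while those of IsoL 3 and Model 2 (0.620 to 1.70 CPM) did. The group means were 1.58 ± 0.441 and 1.72 ± 1.15 CPM (log2 fold change 0.11, SE 0.45, 95% interval -0.87 to 1.09). Its direction was not stable: the log2 value was -0.29 without IsoL 1, -0.09 without IsoL 2 and -0.04 without Model 2.

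Egr2 (ENSMUSG00000037868, chromosome 10), known for its part in hindbrain patterning and Schwann cell myelination, had 8, 3, 10 and 7 counts in Model 1 to 4 and 9, 10, 4 and 7 counts in IsoL 1 to 4. Summed over a group this is 0.472 CPM in Model (exact Poisson 95% interval 0.313 to 0.681) and 0.422 CPM in IsoL (0.284 to 0.602). Schwann cell markers summed to 36.1 to 49.2 CPM in Model and 42.9 to 49.9 CPM in IsoL. Egr2 was the 1 member that did not pass the filter on low counts, and a difference was not detectable at this depth.

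Nr4a3 (ENSMUSG00000028341, chromosome 4), also called Nor1, was read at 19.2, 18.2, 20.1 and 20.5 CPM in Model 1 to 4 and at 20.6, 18.3, 12.9 and 10.9 CPM in IsoL 1 to 4. IsoL 1 and 2 were at the Model level, and IsoL 3 and 4 at 0.662 and 0.560 of the Model mean. The means were 19.5 ± 1.03 and 15.7 ± 4.52 CPM (log2 fold change -0.32, SE 0.18, 95% interval -0.71 to 0.07). The log2 value was -0.17 without IsoL 4 and -0.48 without IsoL 1.

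Nr4a2 (ENSMUSG00000026826, chromosome 2) was read at 35.0, 34.5, 39.1 and 36.7 CPM in Model 1 to 4 and at 29.3, 32.1, 37.1 and 34.5 CPM in IsoL 1 to 4. The groups overlapped, with IsoL 1 and 2 the lowest libraries and IsoL 3 within the Model range. The means were 36.4 ± 2.06 and 33.2 ± 3.35 CPM (log2 fold change -0.13, SE 0.08, 95% interval -0.30 to 0.04). The log2 value was -0.07 without IsoL 1 and -0.18 without IsoL 3. Markers of midbrain dopamine neurons (7 of 7 in the table, all 6 tested below Model) followed a similar order, summing to 156, 173, 220 and 212 CPM in IsoL 1 to 4 and to 206 to 263 CPM in Model, and their part in the Nr4a2 values was not tested. Within its family Nr4a2 made up 45.9 to 49.4% of the summed FPKM in Model and 47.3, 48.5, 55.6 and 55.8% in IsoL 1 to 4. The family's sum was 18.2 to 19.6 FPKM in Model and 15.2 to 16.5 FPKM in IsoL.

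**Figure D2:**
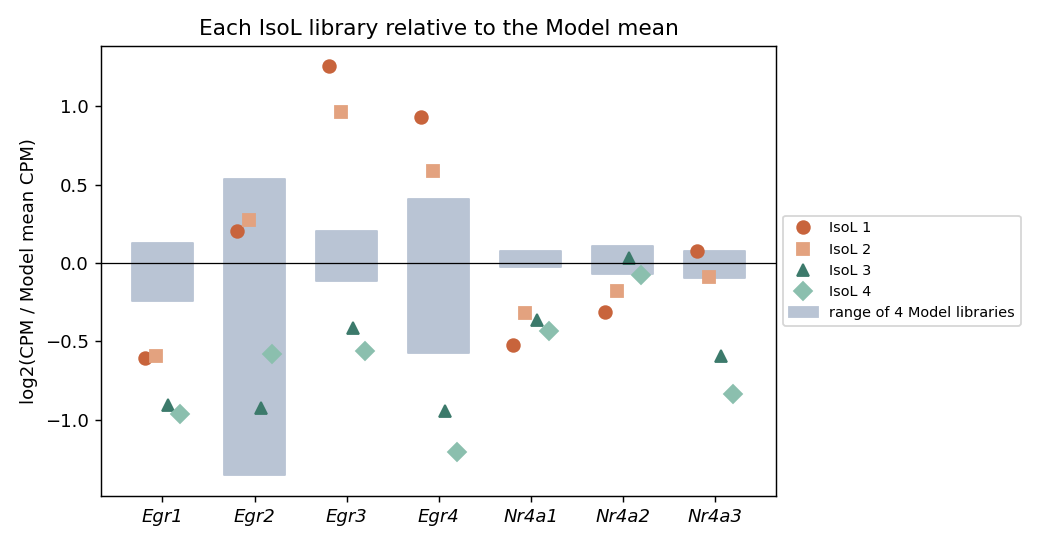
log2 of the ratio of CPM in each IsoL library (symbols) to the Model mean, by member; grey bars span the 4 Model libraries. IsoL 1 and 2 lie at 1.253 and 0.96 for Egr3 and at -0.61 and -0.59 for Egr1, while IsoL 3 and 4 are below 0 for all members except Nr4a2 in IsoL 3.

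Across the whole table, edgeR's quasi-likelihood test placed 2 of the 6 tested members past the adjusted threshold of 0.05, Egr1 and Nr4a1, both lower in IsoL. Of all 14536 genes tested, 0.275% passed in either direction, 0.158% lower and 0.117% higher. The same 2 members had every IsoL library below every Model library, against 4.42% of all genes (4.05% had all IsoL libraries above and 8.48% were separated in either direction). Of the 6, 4 had a log2 fold change below 0, as did 50.5% of all genes. Because the members were chosen on this contrast, nothing is read from these counts. The median log2 fold change of the 6 was -0.22, and that of all genes -0.00146. Egr1 lost its call without Model 1, Model 4 or IsoL 3, and Nr4a1 lost it in each fit that left out a library other than Model 2.

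The opposite movement of IsoL 1 and 2 and of IsoL 3 and 4 around the Model range was rare. It was found for 2 of the 6 tested members, Egr3 and Egr4, and for 0.365% of all genes tested. Of the 12 tested cortical and hippocampal markers, 2 had it, Tbr1 and Nrgn. The pattern was described after the values were seen. Within IsoL the SD of log2 CPM was 0.92 for Egr3, 0.98 for Egr4 and 0.42 for Nr4a3, against a median of 0.10 over all genes, and 0.564, 0.447 and 5.52% of genes had a larger one. Nr4a1, at 0.09, was below that median. In Model the SDs were 0.14 for Egr3 and 0.08 for Nr4a3, beside a median of 0.13. Egr4, with few counts, was variable in Model too, with an SD of 0.39 that 10.5% of genes exceeded. The ratio of Egr1 to Egr3, in FPKM within a library, was 11.5 to 14.9 in Model and 3.63, 4.47, 9.36 and 9.97 in IsoL 1 to 4, so every IsoL library had less Egr1 per Egr3 than any Model library.

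The 2 IsoL libraries with high Egr3 and Egr4 were those with high cortical, hippocampal and choroid plexus markers. Of the 12 tested cortical and hippocampal markers 6 were above and 6 below Model, and none was at 0 in all libraries. Slc17a7, the cortical vesicular glutamate transporter gene, was at 58.9 to 81.5 CPM in Model and at 160, 146, 78.0 and 59.9 CPM in IsoL 1 to 4. Ttr, the transthyretin gene of choroid plexus, was at 1.06 to 4.59 CPM in Model and at 609, 521, 44.8 and 0.458 CPM in IsoL 1 to 4. The part of these markers in the member values was not tested. The cortical and hippocampal score (mean log2 CPM of the tested markers, centred per gene) was 0.66 and 0.59 in IsoL 1 and 2. In the other libraries it was -0.33 to -0.07. A fit with this score cannot tell the markers from anything else that divides these libraries. In a fit added once the data had been seen, with the cortical and hippocampal score as a term, the log2 fold change was -0.87 for Egr1, -0.40 for Nr4a1, -0.60 for Nr4a3, -0.06 for Nr4a2, -0.23 for Egr3 and -0.77 for Egr4. In that fit Egr1 and Nr4a3 passed the threshold and Nr4a1 did not. Across the 8 libraries the score itself followed Egr3 (r = 0.965), and with values centred within groups it followed Nr4a3 (r = 0.958). The fitted values and calls with this score are therefore a description, and nothing further is read from them. Egr1 and Nr4a1 were lower than Model in all 4 IsoL libraries. The cortical sums of IsoL 3 and 4, 796 and 705 CPM, lay within or just under the Model range. The part of these markers in the Egr1 and Nr4a1 values was not tested. The hypothalamic marker sums were also below every Model library in all 4 IsoL libraries, at 143, 208, 268 and 229 CPM in IsoL 1 to 4 and 306 to 362 CPM in Model. Within IsoL these sums were lowest in IsoL 1 and 2. A difference in tissue content between the groups cannot be told apart from the treatment here. None of the 20 markers was at 0 in all libraries, and their part in the Egr1 and Nr4a1 values was not tested.

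**Figure D3:**
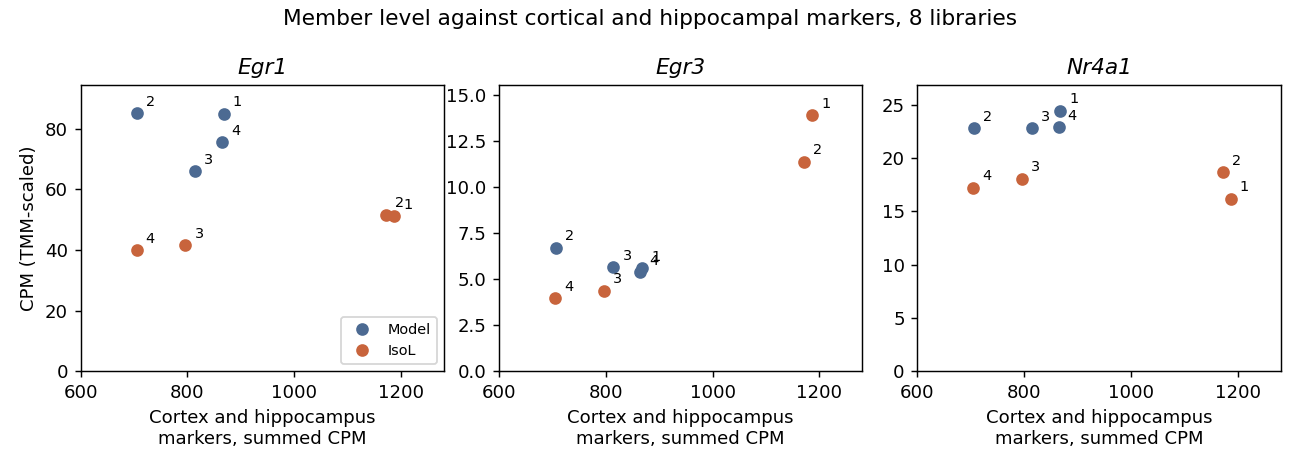
CPM of Egr1, Egr3 and Nr4a1 against the summed CPM of 13 cortical and hippocampal marker genes, 1 point per library numbered by replicate. IsoL 1 and 2, with marker sums of 1187 and 1172 CPM, have the highest Egr3, while all 4 IsoL libraries lie below the Model libraries for Egr1 and Nr4a1.

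Other transcription factors and regulators of the same rapid response were mostly below Model in IsoL. The list was chosen with earlier results of these data known. Of 25 listed genes, 24 were tested, and 2 fell, Fos and Fosl2, none rose and 22 did not pass. Over all genes tested, 0.158% passed as lower and 0.117% as higher in the same edgeR fit. Below Model were 21 of the 24 (50.5% of all genes), with a median log2 fold change of -0.24. Every IsoL library lay below every Model library for 7 of them (4.42% of all genes). The hypothalamic marker sums, given above, were likewise lower in all 4 IsoL libraries, and their part in the list's values was not tested. An unadjusted p under 0.05 was found for 12 of the 24, and DESeq2 and voom called 5 each. Over all genes these shares were 13.2% for the unadjusted p, 2.14% for DESeq2 and 1.64% for voom. Fos, the partner of Jun in AP-1, was at 42.5, 46.0, 31.9 and 38.4 CPM in Model 1 to 4 and at 21.1, 23.5, 23.5 and 20.4 CPM in IsoL 1 to 4 (log2 fold change -0.85 with SE 0.10, adjusted p = 0.00486 in edgeR). Fosl2, a later AP-1 subunit, was at 24.9 to 26.6 CPM in Model and 16.4 to 19.8 CPM in IsoL (log2 fold change -0.47 with SE 0.08, adjusted p = 0.0393 in edgeR). Fos kept its call whichever library was left out, and Fosl2 kept it only without Model 2, where its log2 fold change was -0.48. Named after their values were seen, Fosb was at 6.85 ± 1.17 and 4.02 ± 0.810 CPM and Klf2, a factor best known from endothelium, at 10.7 ± 3.05 and 5.73 ± 1.41 CPM (adjusted p = 0.0864 and 0.120 in edgeR). None of the 24 showed the arrangement of Egr3 and Egr4. Npas4, an activity-specific neuronal factor, was at 6.32, 9.22, 7.15 and 7.52 CPM in IsoL 1 to 4 and at 8.74 to 11.8 CPM in Model. Junb, an AP-1 subunit gene, was at 13.5 to 17.1 CPM in Model and 10.2 to 13.1 CPM in IsoL (adjusted p = 0.197 in edgeR).

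**Figure D4:**
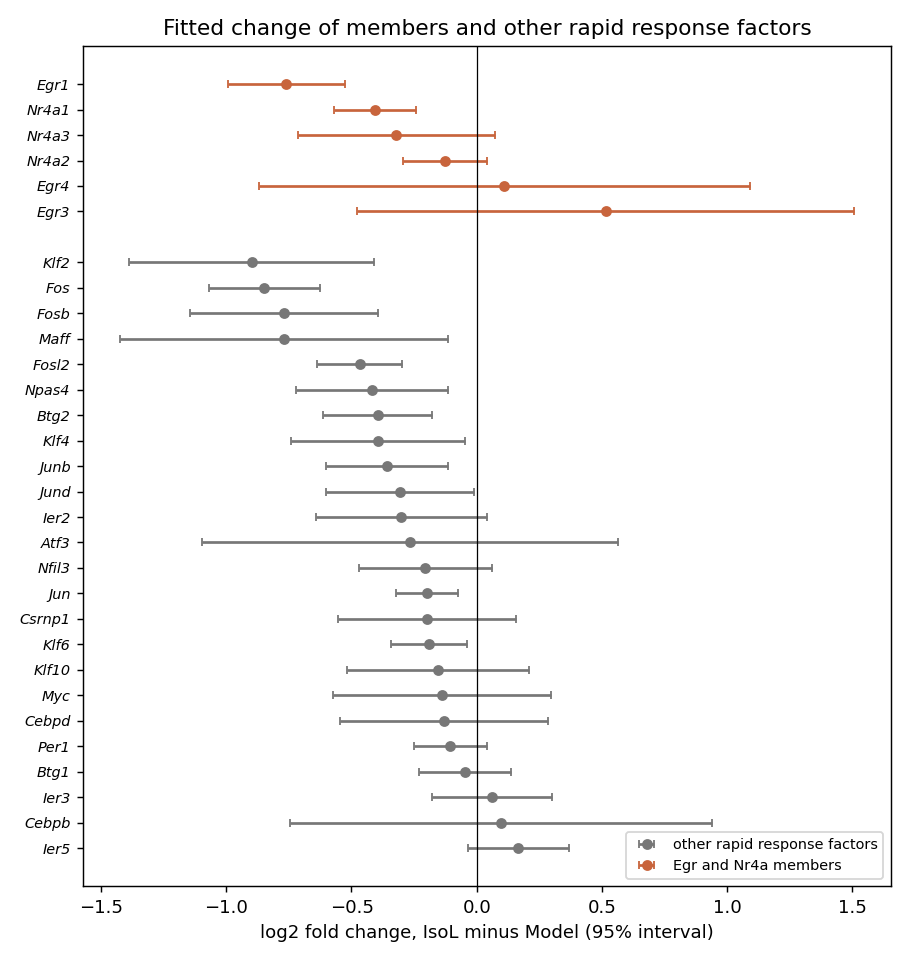
Fitted log2 fold change (IsoL minus Model) with its 95% interval for the 6 tested members and the 24 tested rapid response factors. Egr1 at -0.76 lies beside Fos at -0.85, and the intervals of Egr3 and Egr4 run from -0.48 to 1.51 and from -0.87 to 1.09.

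Genes that act on the promoters of the members showed no call. Of 26 factors and kinases upstream, including Srf, Creb1, the Elk and Mef2 genes and ERK kinases, none passed in edgeR, 4 had an unadjusted p under 0.05 (13.2% of all genes), and none passed in DESeq2 or limma voom. The median log2 fold change was 0.02, with 11 below and 15 above Model. The smallest p belonged to Rps6ka2, a ribosomal S6 kinase gene (log2 fold change -0.30, SE 0.08, edgeR adjusted p = 0.138), and Mef2a, a calcium-responsive factor (-0.17, SE 0.05, edgeR adjusted p = 0.206). Cofactors of the proteins, the Egr corepressors Nab1 and Nab2 and the Nr4a partners Rxra, Rxrb and Rxrg, gave none of 5 past the threshold in edgeR, DESeq2 or voom, and none with an unadjusted p under 0.05. Nab1 had a log2 fold change of -0.13 (95% interval -0.28 to 0.03) and Rxrb of -0.06 (95% interval -0.18 to 0.07).

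Genes described elsewhere as targets of these factors gave no call in edgeR either. Of 12 linked to Egr, 2 had an unadjusted p under 0.05 (13.2% of all genes), 2 passed in DESeq2 (2.14%) and 1 in voom (1.64%), and the median log2 fold change was -0.09. Cdk5r1, the p35 activator of Cdk5, was at 242 ± 8.68 CPM in Model and 208 ± 10.1 CPM in IsoL (log2 fold change -0.22, SE 0.05, edgeR adjusted p = 0.0838). Gabra4, a GABA-A receptor subunit gene tied to Egr3, was at 220 ± 10.4 and 182 ± 21.2 CPM (log2 fold change -0.28, SE 0.07, edgeR adjusted p = 0.133). Its values in IsoL 1 to 4 were 189, 207, 176 and 157 CPM against 206 to 230 CPM in Model, so it did not show the high IsoL 1 and 2 of Egr3. Arc, a synaptic gene under Egr1 and Egr3, was at 19.8 to 23.4 CPM in Model and at 30.3, 25.5, 16.6 and 14.8 CPM in IsoL 1 to 4, the arrangement of Egr3 and Egr4 (edgeR adjusted p = 0.979). Its log2 fold change of -0.02 turned above 0 in 4 of the fits that left out a library.

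Of 7 genes linked to Nr4a, none passed in edgeR, 4 had an unadjusted p under 0.05 (13.2% of all genes), 3 passed in DESeq2 (2.14%) and 2 in voom (1.64%), with a median log2 fold change of -0.27. The 4 did not share a direction: Ret, Slc18a2 and Slc6a3 were lower in IsoL, and Vip was higher (log2 fold change 0.53, SE 0.22). Ret, the receptor of glial-derived neurotrophic factor, was at 138 ± 5.38 CPM in Model and 112 ± 9.97 CPM in IsoL (log2 fold change -0.30, SE 0.06, edgeR adjusted p = 0.0654). Slc18a2, which loads dopamine into vesicles, was at 126 ± 6.45 and 99.4 ± 10.8 CPM (log2 fold change -0.34, SE 0.07, adjusted p = 0.0687 in edgeR). Ret, Slc18a2 and the dopamine transporter gene Slc6a3 are also genes of midbrain dopamine neurons, whose marker sums are given with Nr4a2. Th, tyrosine hydroxylase, is on both lists of linked genes, and Nab2 on that of Egr and on that of cofactors.

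The genes whose profile was most like the mean of the 6 tested members were ranked among 10247 other genes with a mean of at least 10 CPM, by Pearson r over the 8 libraries, which share 2 groups and the division within IsoL. The 8 highest were Rasgrp1 (r = 0.975), Dgkb (0.973), Rorb (0.963), Brinp1 (0.961), Mtmr6 (0.957), Rgs7bp (0.956), Homer1 (0.955) and Mgll (0.947). The members themselves did not share a common profile, so a gene like their mean need not follow each of them. Between members, r was 0.89 for Egr1 with Nr4a1 and 0.83 for Egr3 with Egr4. It was 0.05 for Egr1 with Egr3, -0.32 for Egr3 with Nr4a1 and -0.81 for Egr3 with Nr4a2. Rasgrp1, a calcium and diacylglycerol regulated activator of Ras, was at 271 to 307 CPM in Model and at 311, 323, 228 and 200 CPM in IsoL 1 to 4, so its lowest libraries were IsoL 3 and 4. Homer1, a postsynaptic scaffold gene, was at 56.3 to 65.0 CPM in Model and at 63.5, 65.0, 49.8 and 49.1 CPM in IsoL 1 to 4. With every profile centred within its group, the 4 highest were Ksr1 (0.993), Wipf3 (0.990), Arc (0.978) and Slc4a10 (0.978). Wipf3 was at 20.7 to 24.4 CPM in Model and at 79.1, 64.8, 24.9 and 18.2 CPM in IsoL 1 to 4.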

How the data were processed

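Polyadenylated RNA of 8 brain libraries was sequenced. Per the submitters' processing notes the authors used fastp 0.22.0, HISAT2 2.1.0 and HTSeq 0.9.1. The sources used here name no build or annotation, and no strand marking is stated per the labels. The authors deposited whole-number read counts, used for every test. They also deposited FPKM, which follow from counts, length and the library total (largest relative difference 1.11e-09 for counts over 200) and served here only to compare levels between genes. Gene length is the other deposited column used.

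The comparison was IsoL minus Model in edgeR 4.0.16 (R 4.3.3) with filterByExpr, TMM, the robust quasi-likelihood F-test and Benjamini-Hochberg adjustment over 14536 genes at 0.05. SE is the absolute log2 fold change over the square root of F. DESeq2 1.42.0, limma 3.58.1 voom, other filters, DESeq2 size factors, a replicate block and leaving out each library were alternatives. Log2 CPM used a prior count of 2. On simulated data of 14536 genes with 4 against 4 libraries, the test recovered 38% of 50 genes changed 1.25-fold, 62% at 1.5-fold and 84% at 2-fold, with 13 false calls.

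The members and gene lists were chosen with earlier results of these data known. Named were all members, per list the genes past the threshold (if none, the 2 of smallest p), and the genes with profiles nearest to the members. Fosb, Klf2, Npas4, Junb, Arc and Vip were named after their values were seen. Figures used matplotlib 3.10.9.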

Additional observations from a re-analysis of the deposited data

Results flagged for a closer look

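Nr4a1 in Model 1, at 24.5 CPM, was set apart from the other 3 Model libraries at 22.8 to 22.9 CPM by a gap that made up 0.959 of the group's whole range. It was 1 of 14 sets of 4 libraries looked at for the members, and chance flags about 1 in 20. The range itself is narrow, and without Model 1 the log2 fold change of Nr4a1 was -0.38 against -0.41.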

How the results depend on the processing

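The count of genes past the threshold, 40, was 74 without a filter on low counts, 17 with the replicate block, 7 without robust estimation, 311 in DESeq2 and 238 in voom, and 6 (without Model 4 or IsoL 2) to 146 (without Model 2) with a library left out. The count of members was 1 with the block and without robust estimation, where Nr4a1 lost its call, and 0 to 2 with a library left out, 0 without Model 1, Model 4 or IsoL 3. That of the rapid response factors was 1 with the block, without robust estimation and with the cortical covariate, 5 in DESeq2 and in voom, and 1 to 3 with a library left out. Genes linked to Egr gave 2 in DESeq2, 1 in voom, 1 with the covariate and 0 to 1 with a library left out. Genes linked to Nr4a gave 2 without the filter, 3 in DESeq2, 2 in voom and 0 to 1 with a library left out. No setting gave a call among upstream genes or cofactors. Egr4 turned direction with the block (log2 fold change -8.1e-04), in voom (-0.27), with the covariate (-0.77) and, with a library left out, over a range of -0.29 to 0.40. Egr3 turned with the covariate (-0.23). Arc ranged from -0.22 to 0.13 with a library left out. The cause was not tested. Of 336 single-gene values under the alternatives, 283 kept direction and side of the threshold. Of the 8 genes most like the members, 0 were among the 8 highest once profiles were centred within groups, and 8 were with DESeq2 size factors. Same-numbered libraries did not deviate together (r = 0.0199 to 0.0696 over genes, and 2 of 8 libraries correlated best with their own number). Pairing by number was thus not seen, but these values cannot exclude it. Depth limits Egr2 and Egr4, and 4 libraries per group limit all values.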

Other observations

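Single members had different nearest profiles, ranked after their values were seen by Pearson r over the 8 libraries among the same 10247 genes. For Egr3 the highest was Nrgn (r = 0.987), a postsynaptic gene of the forebrain that is also on the cortical marker list, at 17.5 to 18.7 CPM in Model and 31.6, 29.6, 16.2 and 15.3 CPM in IsoL 1 to 4. Next came Jph1 (0.982), Gria3 (0.967), an AMPA receptor subunit gene, Prob1 (0.965) and Ppp3ca (0.963), a calcineurin subunit gene.

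For Nr4a1 the highest was Fosl2 (r = 0.990), followed by Zdhhc22 (0.983), Eif3g (0.981), the chaperone gene Hsph1 (0.972) and Gpr83 (0.971). For Egr1 the highest were Olfm3 (0.980), Ndrg4 (0.978), Ywhah (0.974), Khdrbs3 (0.972) and Gpr12 (0.971). Olfm3 was at 129 to 136 CPM in Model and 110 to 120 CPM in IsoL, a narrower difference than that of Egr1.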
